A study of Mus musculus with 12 samples.

Results

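The 6 arrays labelled 22 h and 12 h, of 12 in the series, were compared to find which transcripts differed at 22 h relative to 12 h in erythroid progenitors, and which of these differences were common to 3 cell lines. The members were the 3 arrays labelled 22 h and the 3 labelled 12 h, and each 22 h array was paired with the 12 h array of the same shRNA. The cells were I/11, an immature pro-erythroblast line that derives from p53-deficient mouse fetal liver, so all groups share that background. Lines stably infected with pLKO lentiviral vectors carried the hairpin PLCy1 sh 14 (called sh14 here) or PLCy1 sh 133 (sh133), both directed against Plcg1 (phospholipase C gamma 1), or the scrambled control scr. At 22 h and at 12 h there was thus 1 array each of sh14, sh133 and scr. The growth protocol names erythropoietin, stem cell factor and dexamethasone for expansion, the vectors carry puromycin resistance, and the starting point of the hours is not given in the labels. Nothing in the labels says that the arrays came from separate cultures, so p-values measure only the spread between these samples, which may be technical.

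Erythroid progenitors respond to erythropoietin through its receptor and the kinase JAK2, which activates STAT5. As they mature into red cells they shut down progenitor genes, make heme and globin, and build a membrane skeleton anchored to band 3 and the ankyrin and 4.2 proteins. The transcription factors GATA1 and KLF1 drive many of these genes, and GATA1 binds DNA at GATA motifs. Late erythroblasts also reduce their ribosome production and stop dividing before they expel the nucleus.

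Values are log2 RMA signals of the deposited table, in which 1 unit is a 2-fold difference, and each gene is represented by its brightest probe set. Differences were tested with limma in a model of all 12 arrays that holds shRNA line, time and the date string in the array titles, and p-values were adjusted by Benjamini-Hochberg over the 12673 genes tested. An adjusted p under 0.05 counts as called. The titles carry 2 date strings, and what they record is not stated in the labels. The sh14 pair and the scr pair each share a date, and the sh133 pair crosses them. A fitted difference allows for the title date and can therefore lie outside the range of the 3 pair differences, so the mean of the pairs with its SD (n = 3) is given beside it for the leading genes. The median array signal was between 1.84 and 1.92 over the 12 arrays, correlations between arrays were between 0.983 and 0.997, and the number of arrays limits the precision. In bulk RNA, fewer cells of a type and less RNA per cell cannot be told apart.

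Plcg1, the gene the hairpins target, had 4.30, 4.39 and 4.31 in sh14, sh133 and scr at 22 h, against 4.27, 4.37 and 4.61 at 12 h. It had 3.86, 4.35 and 4.45 at 6 h and 4.16, 4.53 and 4.74 at 1 h. Both hairpin arrays were below scr at 1, 6 and 12 h, whereas at 22 h sh133 was above scr and sh14 was level with it. Plcg1 was not called in the late step (fitted difference -0.09, adjusted p = 0.798).

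Of the 12673 genes tested, 158 (1.25%) were called, 54 of them (0.426%) higher and 104 (0.821%) lower at 22 h. In 152 genes (1.2%) the call came with the same sign in sh14, sh133 and scr, and these comprised 53 higher genes (0.418%) and 99 lower genes (0.781%). The remaining 6 called genes differed in sign between the lines. The signs come from arrays that the test also used, so their agreement among called genes is a description and no separate support. At an unadjusted p under 0.05 there were 2181 genes (17.2%), 770 (6.08%) higher and 1411 (11.1%) lower. Over all genes tested, 43.6% had the same sign in the 3 lines, 18.6% on the higher and 25.0% on the lower side. Changes of 2-fold or more in every line were rarer. They were met by 5 genes on the higher side (0.0395%), which were Bnip3, Nupr1, Aqp1 and the incompletely characterised transcripts Gm20161 and 5430401H09Rik, and by 3 on the lower side (0.0237%), which were Vim, Kcne3 and Hdc.

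The pair differences had an SD over all genes of 0.31 in sh14, 0.25 in sh133 and 0.28 in scr, around medians of -0.03, -0.02 and -0.01. Taken as single pairs, 60 genes (0.473%) were 2-fold or more higher in sh14, 17 (0.134%) in sh133 and 20 (0.158%) in scr, and 39 (0.308%), 17 (0.134%) and 35 (0.276%) were 2-fold or more lower in the same order of lines. Across genes, which are not independent replicates, the pair differences of sh14 and scr correlated at r = 0.36, those of sh133 and scr at 0.46, and those of sh14 and sh133 at 0.42 (12673 genes).

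**Figure D1:**
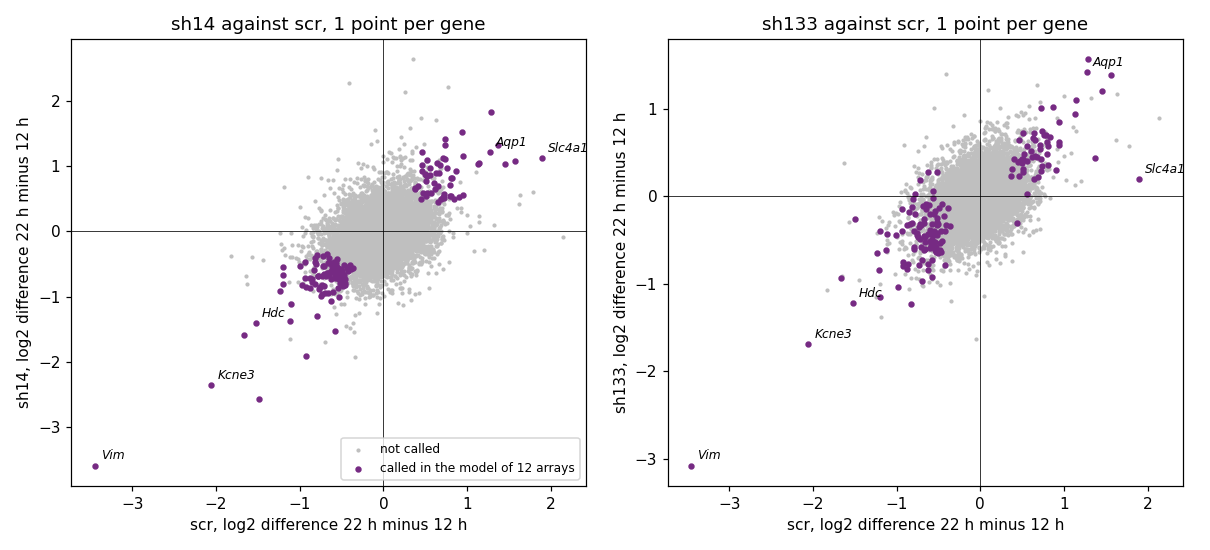
Log2 difference 22 h minus 12 h in sh14 (left) and sh133 (right) on the y axis against that in scr on the x axis, with 1 point per gene and the 158 called genes in purple. Vim lies far below the other genes in all 3 lines, and Slc4a1 is near 0 on the sh133 axis.

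Slc4a1 and Alas2, both needed by red cells, had the largest fitted rises of the 15 leading rising genes, which exclude predicted names and mean signals below 3. By the mean of pairs, Aqp1 (1.30 ± 0.10), Nupr1 (1.24 ± 0.21) and Ankrd37 (1.12 ± 0.54) lay above both. Alas2, the X-linked erythroid enzyme of the committed step of heme synthesis, had a signal of 5.84 in sh14, 7.47 in sh133 and 6.34 in scr at 22 h, against 4.31, 6.62 and 5.40 at 12 h. It was higher at 22 h in each line, while the ranges of the 2 times overlapped, with sh133 above the other lines at both. The mean pair difference was 1.10 ± 0.37, a 2.15-fold higher signal, and the fitted difference was 1.36 ± 0.21 (SE, limma adjusted p = 0.0245). Slc25a37 (mitoferrin 1), which carries iron into mitochondria for heme, stood at 8.46, 8.72 and 8.90 in sh14, sh133 and scr at 22 h, against 7.14, 7.71 and 8.17 at 12 h. All 22 h arrays lay above all 12 h arrays, with a mean pair difference of 1.02 ± 0.30 (2.03-fold) and a limma adjusted p of 0.0183.

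Of the 12 tested genes of heme synthesis, Alas2 was the 1 called, and 11 were higher at 22 h in all 3 lines by sign, beside 18.6% of all genes. At an unadjusted p under 0.05, 8 of the 12 were higher and 0 lower, beside 6.08% and 11.1% of all genes. Ppox, protoporphyrinogen oxidase, had a fitted difference of 0.69 (adjusted p = 0.0721), Alad, which forms porphobilinogen, 0.62 (0.0964), and Uros, uroporphyrinogen III synthase, 0.58 (0.0625). The median fitted difference of the list was 0.38, beside -0.01 for all genes. Among 15 genes of iron uptake and storage, Slc25a37 was called higher and Flvcr1, a heme exporter, lower, beside 0.426% and 0.821% of all genes. By sign, 2 were higher and 3 lower in all lines, beside 18.6% and 25.0%. At an unadjusted p under 0.05, 1 was higher and 3 were lower, beside 6.08% and 11.1%. The median fitted difference of this list was -0.02. Flvcr1 had 5.76, 6.19 and 6.46 in sh14, sh133 and scr at 22 h, against 6.70, 6.91 and 7.16 at 12 h (mean of pairs -0.79 ± 0.13, adjusted p = 0.0324). The transferrin receptor Tfrc was not called, with a mean pair difference of 0.44 ± 0.27.

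Of 26 tested genes of the red cell membrane and its surface, 5 were called higher and 0 lower, beside 0.426% and 0.821% of all genes. At an unadjusted p under 0.05, 13 were higher and 1 was lower, beside 6.08% and 11.1% of all genes. By sign alone, 16 were higher and 1 was lower in all lines, beside 18.6% and 25.0%, and the median fitted difference was 0.28. Epb42, protein 4.2, which ties band 3 to the ankyrin complex, had 5.53, 5.40 and 5.79 in sh14, sh133 and scr at 22 h, against 4.37, 4.78 and 4.84 at 12 h. The times did not overlap, and the mean pair difference was 0.91 ± 0.27 (1.88-fold, adjusted p = 0.0164). Slc4a1, band 3 itself, the anion exchanger of the red cell, had 7.72, 8.17 and 8.95 at 22 h in sh14, sh133 and scr, against 6.60, 7.97 and 7.05 at 12 h. Its fitted difference of 1.44 ± 0.24 (adjusted p = 0.0304) rested on sh14 and scr, with pair differences of 1.13 and 1.90, whereas the sh133 pair differed by 0.20. The mean of the pairs was 1.07 ± 0.85, and without the title date term Slc4a1 was not called (limma adjusted p = 0.103).

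Aqp1, the water channel that carries the Colton blood group in human red cells, had 3.02, 4.48 and 3.66 in sh14, sh133 and scr at 22 h, against 1.79, 3.06 and 2.39 at 12 h. The lines differed in level, and the rise was alike in size in the 3 pairs (1.30 ± 0.10, 2.47-fold, adjusted p = 0.0183), although the 12 h signals are close to the array medians. Rhd, the mouse Rh blood group gene, had 8.37, 8.17 and 8.72 at 22 h, against 7.39, 7.60 and 8.16 at 12 h (0.70 ± 0.24, adjusted p = 0.045). Tmod1, tropomodulin 1, which caps the short actin filaments of the membrane skeleton, had 6.21, 6.89 and 6.07 at 22 h, against 5.55, 6.43 and 5.46 at 12 h (0.57 ± 0.11, adjusted p = 0.0205). The glucose transporter Slc2a1 was not called, with a mean of pairs of 0.43 ± 0.33.

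Globin signals were less even. Hbb-b2, an adult beta globin gene, had 8.61, 8.03 and 7.71 in sh14, sh133 and scr at 22 h, against 7.19, 7.69 and 6.97 at 12 h (mean of pairs 0.84 ± 0.55, fitted 1.23 ± 0.21, adjusted p = 0.0304). A second probe set of this gene above the filter had a mean pair difference of -0.33, and the near-identical copies of beta globin make both uncertain. The other 3 tested globin genes, which were the embryonic Hbb-bh1 (0.40 ± 0.25) and Hba-x (0.21 ± 0.20) and the adult alpha gene Hba-a2 (0.17 ± 0.15), were not called. Their mean signals at 12 h and 22 h were 1.88 and 2.28 for Hbb-bh1, 1.96 and 2.16 for Hba-x, and 2.42 and 2.59 for Hba-a2. These are close to the array medians, so a change in these genes may not be visible here. Of the 12 genes in the list of globins and the alpha globin chaperone, 4 were tested.

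Among 27 genes of red cell enzymes and late remodelling, Btg2 and Hemgn were called higher and 0 lower, beside 0.426% and 0.821% of all genes. At an unadjusted p under 0.05, 12 were higher and 0 lower, beside 6.08% and 11.1% of all genes. By sign, 16 were higher and 2 lower in all lines, beside 18.6% and 25.0% (median fitted difference 0.21). Hemgn, hemogen, a nuclear protein of blood progenitors and erythroblasts, had 9.01, 9.35 and 9.37 in sh14, sh133 and scr at 22 h, against 8.52, 8.68 and 8.53 at 12 h. The times did not overlap, and the mean pair difference was 0.67 ± 0.17 (1.59-fold, adjusted p = 0.0431). Trim10, a RING finger gene of terminal erythroid cells, had a mean pair difference of 0.85 ± 0.22 and did not pass (adjusted p = 0.107). The 15 rising genes of largest change also held Fhdc1, which encodes a formin-family protein (1.04 ± 0.10), the spermine oxidase Smox (0.74 ± 0.14), the RNA-binding translational regulator Cpeb4 (0.71 ± 0.28) and the ubiquitin ligase Marchf3 (0.69 ± 0.46).

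Of 22 tested transcription factors of the erythroid lineage, Sox6 was the 1 called, beside 0.426% of all genes called higher. By sign, 9 were higher and 5 lower in all lines, beside 18.6% and 25.0% of all genes. At an unadjusted p under 0.05, 4 were higher and 3 lower, beside 6.08% and 11.1%. Gata1 had 8.54, 8.62 and 8.42 in sh14, sh133 and scr at 22 h, against 8.07, 8.48 and 8.42 at 12 h (fitted difference 0.24, adjusted p = 0.309). Klf1 had 9.58, 9.80 and 10.14 at 22 h, against 9.42, 9.58 and 9.95 at 12 h, so each line was slightly higher, and the gene was not called (0.15, adjusted p = 0.523). Sox6, which in mice is known for silencing embryonic globin, had 6.67, 5.75 and 5.71 at 22 h, against 5.54, 5.22 and 5.00 at 12 h (mean of pairs 0.79 ± 0.30, adjusted p = 0.0183). Its 3 other probe sets above the filter had mean pair differences between -0.29 and 0.65. The list's median fitted difference was 0.03, and it was -0.01 under median centring of the arrays.

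GATA1 binds GATA motifs, so promoters were searched for AGATAA and TGATAA on both strands, in the 300 bases from 250 before to 50 after the start of each gene in RefSeq (GRCm38.p6). A match was held by 15 of the 43 promoters found for genes called higher in all lines (34.9%), by 3 of the 76 found for genes called lower in all lines (3.95%), by 10.3% of the promoters of 10183 tested genes and by 19.0% of all 27025 in the table. Mean GC content was 59.1% for the higher genes, 63.1% for the lower, 60.6% for all tested genes and 53.6% for the whole table. The promoters of the 4 called members of the red cell lists that hold a match are printed 5′ to 3′ on the gene's strand with the match in capitals, since their genes carry the erythroid changes described above. The Alas2 match, on the opposite strand, starts 86 bases before the annotated start, the Epb42 match, also on the opposite strand, 226 bases before, the Rhd match 43 bases before and the nearer of the Hemgn pair 13 bases before.
Alas2 at chrX:150547167-150547466, plus strand: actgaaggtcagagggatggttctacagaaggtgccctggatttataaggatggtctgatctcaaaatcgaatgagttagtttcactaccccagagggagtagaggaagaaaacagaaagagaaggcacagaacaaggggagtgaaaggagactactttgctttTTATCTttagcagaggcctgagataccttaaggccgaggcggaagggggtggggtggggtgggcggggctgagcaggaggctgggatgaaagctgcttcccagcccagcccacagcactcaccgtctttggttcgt
Epb42 at chr2:121036828-121037127, minus strand: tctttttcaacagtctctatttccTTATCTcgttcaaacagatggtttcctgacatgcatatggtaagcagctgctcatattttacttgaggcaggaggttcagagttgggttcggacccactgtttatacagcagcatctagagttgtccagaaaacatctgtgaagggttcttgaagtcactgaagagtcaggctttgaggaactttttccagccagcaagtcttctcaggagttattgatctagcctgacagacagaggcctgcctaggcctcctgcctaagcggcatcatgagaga
Rhd at chr4:134864286-134864585, plus strand: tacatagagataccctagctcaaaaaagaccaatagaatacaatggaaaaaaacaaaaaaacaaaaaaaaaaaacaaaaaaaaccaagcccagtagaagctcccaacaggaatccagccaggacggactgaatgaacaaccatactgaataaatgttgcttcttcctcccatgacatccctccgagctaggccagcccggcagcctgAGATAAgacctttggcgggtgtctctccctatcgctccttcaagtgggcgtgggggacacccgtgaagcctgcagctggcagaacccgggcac
Hemgn at chr4:46404134-46404433, minus strand: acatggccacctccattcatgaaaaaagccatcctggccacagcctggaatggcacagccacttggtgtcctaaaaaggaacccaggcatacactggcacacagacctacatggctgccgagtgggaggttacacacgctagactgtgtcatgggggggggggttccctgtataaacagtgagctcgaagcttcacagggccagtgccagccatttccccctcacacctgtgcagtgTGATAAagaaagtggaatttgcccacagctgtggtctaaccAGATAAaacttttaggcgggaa

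These matches describe letters in a window and show no binding. Other motifs were counted in the same way. The KLF1 motif CCNCNCCCN was in 69.8% of the higher, 71.1% of the lower and 68.1% of all tested promoters. The MYC and MAX motif CACGTG was in 16.3%, 9.21% and 10.0% in the same order, and CCAAT in 41.9%, 28.9% and 38.5%. The E2F motifs TTTGGCGC and TTTCCCGC were in 0 of the 43 higher promoters, 2.63% of the lower and 3.07% of all tested promoters.

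The largest called difference of the step was that of Vim, vimentin, the intermediate filament protein that maturing mammalian erythroblasts are known to lose. Its signal was 2.54, 1.39 and 2.07 in sh14, sh133 and scr at 22 h, against 6.14, 4.47 and 5.52 at 12 h. Every 22 h array lay far below every 12 h array. The mean pair difference was -3.38 ± 0.27, a 10.4-fold lower signal, and the fitted difference was -3.45 ± 0.17 (adjusted p = 1.39e-05). The 22 h signals are close to the array medians, so the fold is uncertain at its low end. The 2 further probe sets of Vim above the filter had mean pair differences of -2.91 and -2.87. Vim was already declining before, at 7.28, 6.49 and 6.91 in sh14, sh133 and scr at 6 h and 8.15, 7.24 and 7.58 at 1 h.

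**Figure D2:**
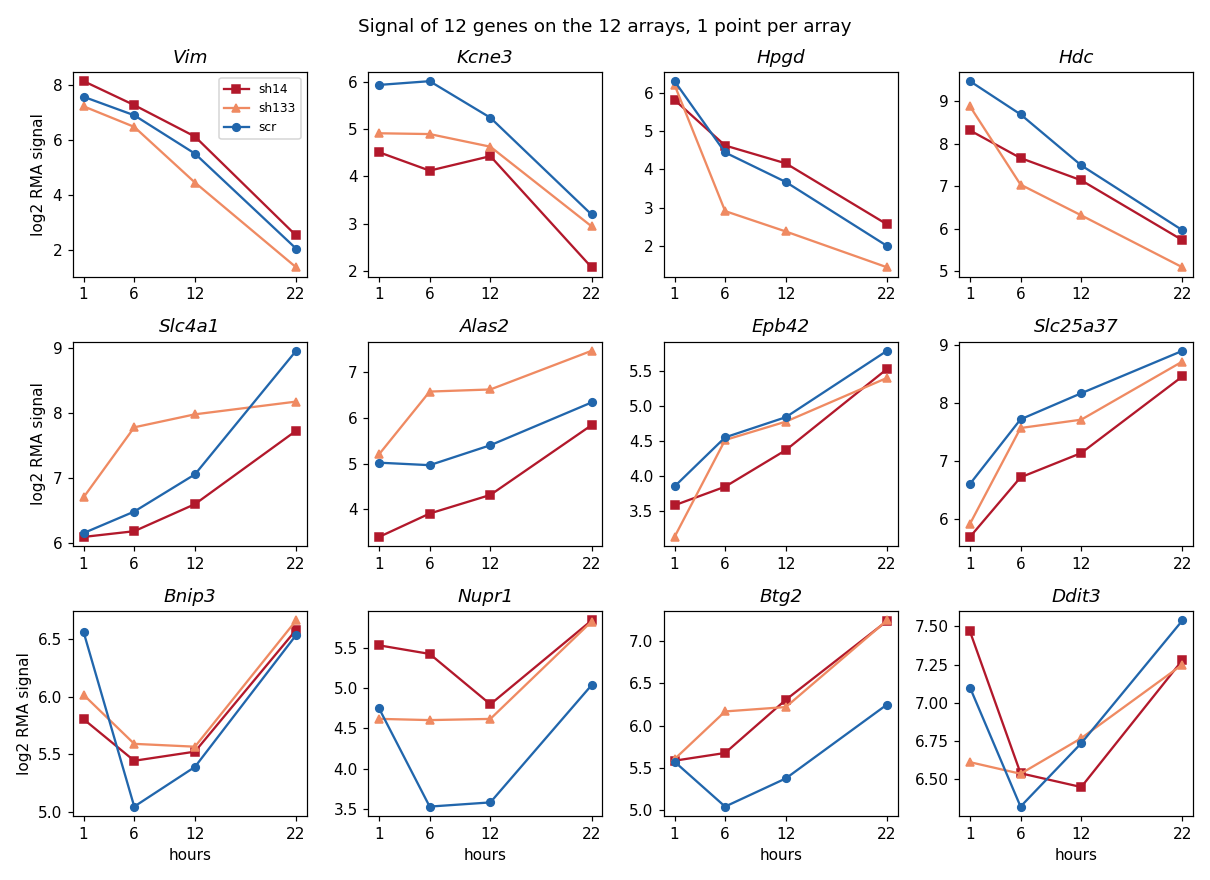
Log2 RMA signal (y axis) of 12 genes at 1, 6, 12 and 22 h (x axis) in sh14 (squares), sh133 (triangles) and scr (circles), with 1 point per array and no error bars because each line has 1 array per time. Vim, Hpgd and Hdc descend through all 4 times in every line, the red cell genes of the middle row end at their highest signal, and Bnip3 is lower at 6 h and 12 h than at 1 h and 22 h in each line.

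Anxa2, Sptan1 and Diaph2 were also among the 15 genes of largest fall. Anxa2, annexin A2, a calcium-dependent phospholipid-binding protein, had 2.82, 2.29 and 2.36 in sh14, sh133 and scr at 22 h, against 4.74, 3.04 and 3.28 at 12 h (mean of pairs -1.20 ± 0.63, adjusted p = 0.0304), while its other probe set above the filter averaged -0.10. Sptan1, the non-erythroid alpha spectrin, had 3.78, 5.02 and 4.38 at 22 h, against 5.16, 5.64 and 5.50 at 12 h (-1.04 ± 0.39, 2.05-fold lower, adjusted p = 0.041). Diaph2, a formin that nucleates actin filaments, had 4.61, 4.03 and 4.41 at 22 h, against 5.43, 5.06 and 5.39 at 12 h, with no overlap between the times (-0.95 ± 0.11, adjusted p = 0.0164).

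Kcne3, an accessory subunit of voltage-gated potassium channels, had 2.07, 2.94 and 3.19 in sh14, sh133 and scr at 22 h, against 4.43, 4.63 and 5.25 at 12 h. All 22 h arrays were below all 12 h arrays (-2.04 ± 0.34, 4.1-fold lower, adjusted p = 0.00956). At 1 h and 6 h it had been 4.51 and 4.12 in sh14, 4.92 and 4.90 in sh133 and 5.95 and 6.02 in scr, so most of its decline lay in the late step. Hpgd, which inactivates prostaglandins, had 2.57, 1.45 and 2.01 at 22 h, against 4.16, 2.38 and 3.67 at 12 h (-1.39 ± 0.40, adjusted p = 0.0183), with 22 h signals near or below the array medians, which leaves the size uncertain. Hdc, histidine decarboxylase, the histamine-forming enzyme of mast cells, basophils and some progenitors, had 5.73, 5.10 and 5.97 at 22 h, against 7.14, 6.32 and 7.49 at 12 h (-1.38 ± 0.15, 2.61-fold lower, adjusted p = 0.0183).

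Csn1s2a, a milk casein gene known in mammary cells as a target of STAT5, had 3.60, 1.63 and 5.10 in sh14, sh133 and scr at 22 h, against 6.18, 1.90 and 6.59 at 12 h. The decline was carried by sh14 (-2.58) and scr (-1.49), whereas sh133 was near background at both times and differed by -0.26. The mean of the pairs was -1.44 ± 1.16, and the fitted difference was -2.29 ± 0.39 (limma adjusted p = 0.0304). Stat5a fell by 0.55 (fitted, adjusted p = 0.0324), with 5.20, 4.76 and 4.87 at 22 h, against 5.68, 5.17 and 5.44 at 12 h. It was the 1 called gene of 21 in the list of EpoR, JAK2 and STAT5 signalling (median fitted difference -0.17, beside -0.01 for all genes). Of the 21, 9 were lower and 1 was higher in all lines, beside 25.0% and 18.6% of all genes. At an unadjusted p under 0.05, 5 were lower and 0 higher, beside 11.1% and 6.08%. The receptor Epor and the kinase Jak2 were not called (0.04, adjusted p = 0.916, and 0.12, adjusted p = 0.682). Ccnd2, cyclin D2, a known STAT5 target, was the 1 called of 18 feedback and target genes of STAT5. Its pair differences were -0.41 in sh14, -0.12 in sh133 and -0.82 in scr (adjusted p = 0.0361). In that list 3 genes were higher and 5 lower in all lines, beside 18.6% and 25.0% of all genes. At an unadjusted p under 0.05, 2 were higher and 3 lower, beside 6.08% and 11.1%. The list's median fitted difference was -0.02, beside -0.01 for all genes.

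Of 22 tested progenitor genes, 12 were lower and 2 higher at 22 h in all 3 lines, beside 25.0% and 18.6% of all genes. At an unadjusted p under 0.05, 5 were lower and 1 was higher, beside 11.1% and 6.08%, and Ets1 was the 1 called. Ets1, a transcription factor of blood progenitors and lymphocytes, had 3.57, 3.26 and 2.31 in sh14, sh133 and scr at 22 h, against 4.42, 4.06 and 3.23 at 12 h (-0.85 ± 0.06, 1.81-fold lower, adjusted p = 0.0401). Myb, which keeps progenitors cycling, had 8.78, 8.69 and 8.30 at 22 h, against 9.16, 9.39 and 9.02 at 12 h. All 22 h arrays were below all 12 h arrays and the gene missed the threshold (-0.60 ± 0.19, adjusted p = 0.0808). Kit, the receptor of stem cell factor, had 6.31, 5.95 and 6.17 at 22 h, against 6.23, 6.43 and 6.80 at 12 h, so sh14 did not share the lower value of the other lines (fitted -0.35, adjusted p = 0.428). Gata2, a progenitor GATA factor, was not called (-0.32, adjusted p = 0.303). Cbfb, the partner of the RUNX factors, was among the leading falling genes, with 6.76, 6.79 and 6.28 at 22 h, against 7.64, 7.62 and 7.16 at 12 h and almost the same difference in each line (-0.86 ± 0.03, adjusted p = 0.0164).

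The remaining genes of largest fall have roles outside this pathway. Esrp2, a regulator of epithelial splicing, had 2.83, 4.31 and 3.25 in sh14, sh133 and scr at 22 h, against 3.63, 5.14 and 4.45 at 12 h (-0.95 ± 0.22, adjusted p = 0.0167). Crtap, a component of the collagen prolyl hydroxylation complex, had 4.03, 3.99 and 4.14 at 22 h, against 4.95, 4.63 and 5.38 at 12 h, without overlap (-0.93 ± 0.30, adjusted p = 0.0183). The mean pair differences were -0.94 ± 0.51 for Me1 (malic enzyme), -0.72 ± 0.29 for Srxn1 (sulfiredoxin, of the oxidative stress response), -0.88 ± 0.39 for the imprinted gene Phlda2 and -0.90 ± 0.36 for Snhg3, a snoRNA host transcript. Other probe sets above the filter averaged -0.40 and 0.17 for Srxn1, -0.33 for Me1 and -0.14 for Esrp2, so the size, and for Srxn1 the direction, depends on the probe set.

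**Figure D3:**
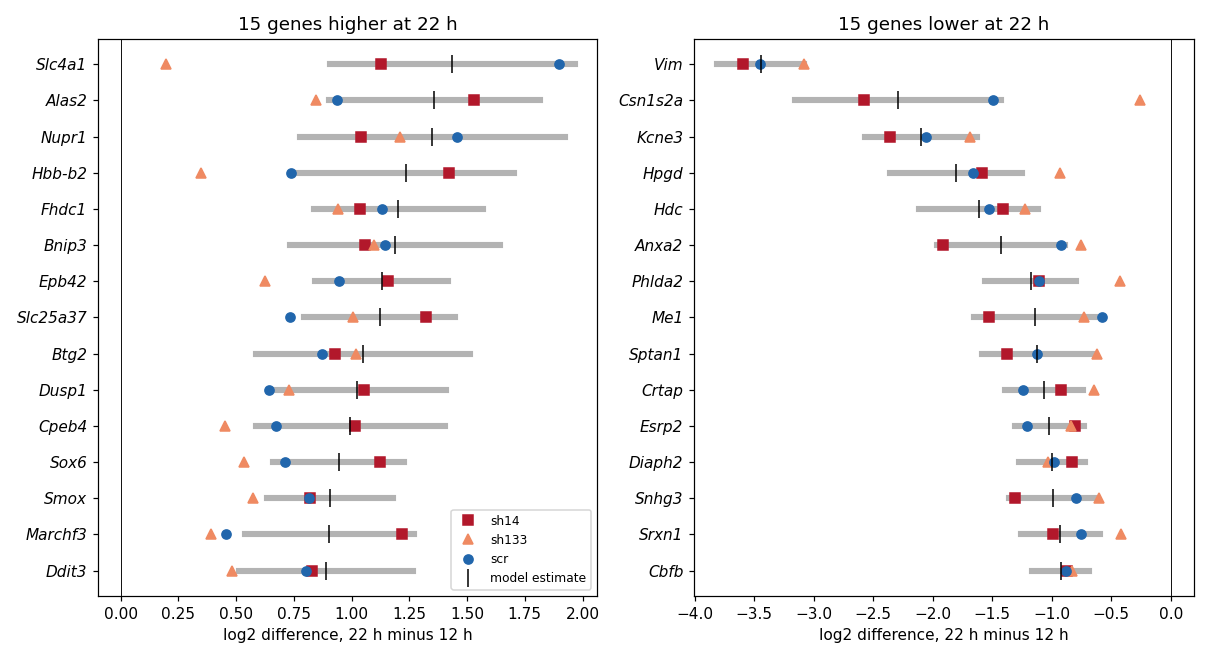
Log2 difference 22 h minus 12 h (x axis) for the 15 called genes of largest rise (left) and largest fall (right) that had the same sign in all lines. Symbols are the pairs of sh14, sh133 and scr, the black tick is the limma estimate and the grey bar its 95% confidence interval. Cbfb and Bnip3 have nearly equal pairs, whereas the sh133 pairs of Slc4a1 and Csn1s2a lie near 0.

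Bnip3, a BCL2-family protein of mitophagy that hypoxia and starvation are known to induce, had 6.58, 6.66 and 6.53 in sh14, sh133 and scr at 22 h, against 5.52, 5.56 and 5.39 at 12 h. The 3 pairs were nearly equal (1.10 ± 0.04, 2.14-fold, adjusted p = 0.0313). At 1 h it had been 5.80 in sh14, 6.01 in sh133 and 6.56 in scr, so in scr the 22 h signal was close to that at 1 h. Nupr1, a small stress-induced chromatin protein, had 5.84, 5.83 and 5.04 at 22 h, against 4.80, 4.62 and 3.58 at 12 h (1.24 ± 0.21, 2.35-fold, adjusted p = 0.0431). Ddit3, the stress transcription factor CHOP, had 7.28, 7.25 and 7.54 at 22 h, against 6.45, 6.77 and 6.74 at 12 h (0.70 ± 0.19, adjusted p = 0.0431).

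Nupr1 and Ddit3 were the 2 called genes of 35 of the ATF4 and unfolded protein response (median fitted difference -0.08). In that list 7 genes were higher and 9 lower in all lines, beside 18.6% and 25.0% of all genes. At an unadjusted p under 0.05, 4 were higher and 2 lower, beside 6.08% and 11.1% of all genes. Together these 6 were 17.1% of the list, beside 17.2% of all genes on either side. Trib3 and Chac1, also among its members of largest change, were not called. Their pair differences in sh14, sh133 and scr were -0.08, 0.89 and 2.14 for Trib3 and 0.10, 1.13 and 1.32 for Chac1. Bnip3 was the 1 called gene of 27 of glycolysis and hypoxia. In that list 9 genes were higher and 1 was lower in all lines, beside 18.6% and 25.0% of all genes. At an unadjusted p under 0.05, 7 were higher and 2 lower, beside 6.08% and 11.1%. Its members Ankrd37 (mean of pairs 1.12 ± 0.54, limma adjusted p = 0.0718) and Egln3 (0.81 ± 0.23, 0.0626) were higher in all lines and not called. Btg2, an antiproliferative p53 target, had 7.23, 7.24 and 6.25 in sh14, sh133 and scr at 22 h, against 6.30, 6.22 and 5.38 at 12 h (0.94 ± 0.08, adjusted p = 0.0477). Perp, another gene known as a p53 target, fell, with 5.53, 3.90 and 3.77 at 22 h, against 6.20, 5.04 and 4.96 at 12 h (fitted difference -0.89, adjusted p = 0.0304). Dusp1, the phosphatase that switches off MAP kinases, had 6.24, 6.89 and 6.17 at 22 h, against 5.18, 6.16 and 5.52 at 12 h (0.81 ± 0.22, adjusted p = 0.0304). Spry2, an inhibitor of receptor tyrosine kinase signalling, fell by 0.81 (fitted, adjusted p = 0.0205) at signals near the array medians.

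Genes of G2 and mitosis had mostly small differences on the higher side. Of 49 tested, 3 were called higher and 0 lower, beside 0.426% and 0.821% of all genes. At an unadjusted p under 0.05, 24 were higher and 0 lower, beside 6.08% and 11.1% of all genes. In all 3 lines 36 were higher and 0 lower, beside 18.6% and 25.0%, and the median fitted difference was 0.31. Mki67, the proliferation antigen Ki-67, had 9.93, 10.22 and 10.11 in sh14, sh133 and scr at 22 h, against 9.07, 9.84 and 9.60 at 12 h (0.58 ± 0.25, adjusted p = 0.0401). Hmmr, a spindle-associated hyaluronan receptor, and Cdc25b, a phosphatase that promotes entry into mitosis, had mean pair differences of 0.58 ± 0.30 (adjusted p = 0.0486) and 0.53 ± 0.24 (0.0304). Nusap1, which bundles spindle microtubules, just missed the threshold (0.66 ± 0.29, adjusted p = 0.0516). Rb1, the retinoblastoma protein that restrains entry into S phase, rose by 0.53 (fitted, adjusted p = 0.0431). Of 46 genes of S phase and DNA replication 0 were called in limma, and 4 had an unadjusted p under 0.05, all higher (8.7%, beside 6.08% of all genes on that side and 17.2% on either). In all lines 16 of the 46 were higher and 3 lower, beside 18.6% and 25.0% of all genes, and the median was 0.13.

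Ribosome biogenesis genes lay on the other side. Of 43 tested, 38 were lower at 22 h in all 3 lines and 0 were higher, beside 25.0% and 18.6% of all genes. The median fitted difference was -0.29, with line medians of -0.35 in sh14, -0.22 in sh133 and -0.18 in scr. In limma 0 of the 43 were called, and 28 had an unadjusted p under 0.05, all lower at 22 h, beside 11.1% of all genes. Grwd1, a histone-binding protein of ribosome assembly, had a mean pair difference of -0.46 ± 0.29, and Polr1b, a subunit of RNA polymerase I, -0.37 ± 0.19. Myc, which drives ribosome production, had -0.35 ± 0.18 and was not called.

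Cholesterol synthesis genes differed in direction between the lines. The median pair difference of the 19 tested was -0.58 in sh14, 0.20 in sh133 and 0.03 in scr. In limma 0 were called, and 6 had an unadjusted p under 0.05, all lower by the fitted difference, beside 11.1% of all genes. In all lines 1 was higher and 2 were lower, beside 18.6% and 25.0% of all genes. Hmgcs1, the cytosolic HMG-CoA synthase, had 8.19, 8.93 and 8.89 in sh14, sh133 and scr at 22 h, against 9.73, 9.08 and 9.25 at 12 h, so the large difference was that of sh14 (-1.54). Heat shock genes (15), autophagy and lysosome genes (32), oxidative phosphorylation genes (25), interferon response genes (25) and genes of the PLC and PKC pathway (31) had 0 called members each in limma, and median fitted differences between -0.17 and 0.04. The unadjusted p was under 0.05 for 2 heat shock, 6 autophagy and lysosome, 0 oxidative phosphorylation, 3 interferon response and 7 PLC and PKC genes, which are 13.3%, 18.8%, 0.0%, 12.0% and 22.6% of these lists, beside 17.2% of all genes.

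**Figure D4:**
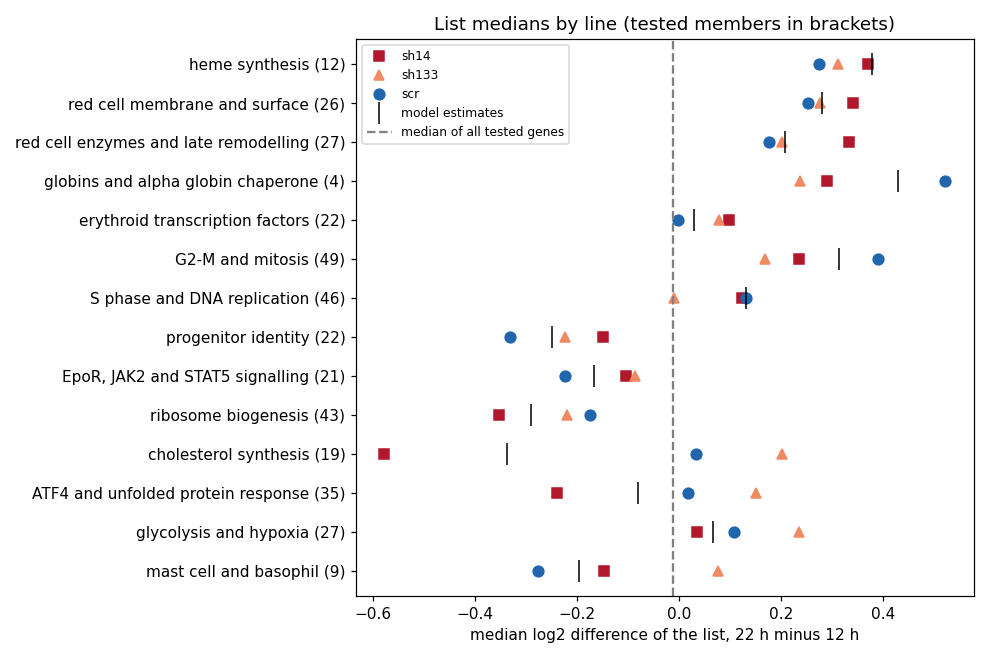
Median log2 difference 22 h minus 12 h (x axis) of 14 gene lists in sh14, sh133 and scr (symbols), with the median of the limma estimates (black tick) and of all tested genes (dashed line). The heme, red cell membrane and G2-M medians lie right of the dashed line and ribosome biogenesis left of it in all 3 lines, whereas the cholesterol synthesis medians of sh14 and sh133 lie on opposite sides.

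Lists of markers of other cell types had 1 called gene among them. Of the 9 tested mast cell and basophil genes Hdc was called, beside 0.821% of all genes called lower. By sign, 2 of the 9 were higher and 4 lower in all lines, beside 18.6% and 25.0% of all genes. At an unadjusted p under 0.05, 1 was higher and 2 were lower, beside 6.08% and 11.1%. The median fitted difference of the list was -0.20. Over its 13 measured genes, tested or not, the mean signal ran from 2.81 to 3.44 at 22 h and from 2.80 to 3.64 at 12 h. The means over the 16 measured megakaryocyte and platelet genes were 3.41 to 4.11 at 22 h and 3.32 to 3.91 at 12 h, and 15 of these genes were tested. In limma 0 of them were called, and 3 had an unadjusted p under 0.05, all higher, beside 6.08% of all genes. By sign, 6 were higher and 0 lower in all lines, beside 18.6% and 25.0%. The median fitted difference of that list was 0.25, beside 0.28 for the red cell membrane list and 0.21 for the red cell enzymes, and its part in the results was not tested. For macrophage and monocyte, neutrophil and lymphoid genes the means over the 14, 13 and 11 measured lay between 1.40 and 1.58 at 22 h. At 12 h these means lay between 1.30 and 1.52, and both ranges are below the array medians. Of the measured genes 6, 5 and 5 were tested, with 0 called and 2 at an unadjusted p under 0.05. Some tested members lay above the array medians, such as Csf1r, Camp and Cd4, with mean signals of 2.45, 2.24 and 2.29 at 22 h. As a measure of RNA quality, the Actb 3′ probe set exceeded the 5′ probe set by 0.53, 0.34 and 0.63 in sh14, sh133 and scr at 22 h, against 0.58, 0.51 and 0.56 at 12 h, with no direction common to the lines, and its part in the results was not tested.

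The earlier course of the genes of the common changes varied. These genes were selected by their 22 h against their 12 h signals, so an extreme at 22 h is in part set by the selection. The matching shares over all genes were not computed, and the following counts only describe the selected genes. Of the 53 genes called higher in all lines, 50 had their highest of the 4 signals at 22 h in every line, and 25 had already been higher at 6 h than at 1 h in every line, while 9 had been lower at 6 h. Of the 99 called lower in all lines, 84 had their lowest signal at 22 h in every line, 24 had been lower at 6 h than at 1 h and 28 higher. In sh14 and scr alone, where the steps share no array and each line has a single title date, 133 genes (1.05%) were called between 6 h and 1 h and 3 (0.0237%) between 22 h and 12 h, which were Vim, Kcne3 and Aqp1. Vim was the 1 gene (0.00789%) called in both steps, with a difference of -0.77 for 6 h minus 1 h (adjusted p = 0.04) and of -3.52 for 22 h minus 12 h.

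Whether the late step differed between the Plcg1 hairpins and scr was tested directly, on 2 residual degrees of freedom. In limma 0 of the 12673 genes (0.0%) were called, and 539 of the 12673 had an unadjusted p under 0.05. The smallest adjusted p was 0.988, so a difference between the hairpins and scr was not detectable with these arrays. The 5 genes of smallest p were Sla, an adaptor protein, and Scin, Mcpt1, Bin1 and Adam33. Sla had pair differences of 1.55 in sh14, 0.50 in sh133 and -0.11 in scr. In the same order the pairs were 0.79, -0.56 and -0.60 for Scin, so its sh133 pair was close to that of scr. They were 1.58, 0.83 and 0.31 for Mcpt1, -0.96, -0.43 and 0.38 for Bin1, and 1.11, 0.72 and 0.04 for Adam33.

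The calls rest on few arrays. Leaving out the 12 h array of sh14 left Vim as the 1 called gene, and leaving out the 12 h array of sh133 or of scr left Vim and Kcne3. Without the 22 h array of sh14, sh133 or scr the count was 107, 28 or 173, against 158 with all arrays. Leaving out the 6 h array of sh14, sh133 or scr gave 78, 2 or 11, and leaving out the 1 h array of sh133 gave 28. Without the title date term 19 of the 30 leading genes stayed called, and Slc4a1 (adjusted p = 0.103), Hbb-b2 (0.182), Dusp1 (0.0673), Cpeb4 (0.147), Marchf3 (0.102), Ddit3 (0.088), Csn1s2a (0.248), Hpgd (0.0616), Phlda2 (0.0892), Me1 (0.0677) and Srxn1 (0.0723) were not.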

How the data were processed

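Per the labels' protocols, total RNA of 12 samples was amplified with a whole-transcriptome kit, labelled with biotin and measured on Affymetrix mouse expression arrays. The deposited values are log2 probe set signals. The submitters' processing notes name RMA for them, and its version is not given in the sources used here. The largest gap between arrays at any quantile was 0.295 log2, and such equalised values carry no information on total RNA per sample.

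From these values, probe sets with 1 annotated gene (34958 of 45101, of which 34754 were matched to RefSeq) were reduced to the brightest of each of 18194 genes, and 12673 genes above log2 1.45, the 40th percentile of mean probe set signal, were kept. limma 3.58.1 in R 4.3.3 was fitted on 12 arrays with shRNA line, time and title date (5 residual degrees of freedom, median SE 0.13), with an adjusted p threshold of 0.05. The shRNA id in the labels pairs the 22 h array with the 12 h array of a line. The title date term called 0 genes, with 694 at an unadjusted p under 0.05. Replicate numbers follow deposit order and pair nothing.

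Named genes were Plcg1, Gata1, Klf1, Epor, Jak2, Kit, Myb and Gata2, the 15 of largest change in each direction among genes that were called and shared a sign in the 3 lines, with a mean signal of at least 3 and no predicted name, the list members of largest change or defining role, and the 5 of smallest p for hairpins against scr. Other named genes are called list members or were chosen after their values were seen. The members and lists were chosen with earlier results of these data known. Promoters are the RefSeq entry listed first for a gene. The fit was tested on simulated data with known changes. Figures were drawn with matplotlib 3.10.9.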

Additional observations from a re-analysis of the deposited data

How the results depend on the processing

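The 158 calls and the 152 with the same sign in all lines were refitted under 22 alternatives. All main calls that were tested kept their direction in each (150 of 158 were tested with a filter at the 60th percentile). The counts moved to 3 and 3 with sh14 and scr arrays only, to 280 and 270 with median centring, and to 0 and 0 with no replicate block, that is without the shRNA line that pairs the arrays (limma, 1431 genes at an unadjusted p under 0.05). Leaving out single arrays gave 1 to 212 calls and 1 to 204 of the same sign. Leaving out either sh133 array of a title date gives the same fit by construction, because the other is then fitted exactly. The counts were 170 without the title date, 135 on 6 arrays, 155 with no filter, 219 at the 60th percentile, 174 with the mean of probe sets, 123 with quantile normalization and 212 with an intensity trend. Higher genes were 34.2% of calls, 50.4% after quantile normalization and 20.7% after median centring. Of 44 called named genes under 22 alternatives (966 values), 0 reversed, 527 kept the call and 439 lost it, and the cause was not tested. Genes called in both steps numbered 1, and 0 with the mean over probe sets. For hairpins against scr 0 were called in limma in all 3 alternatives run for that test (no title date, the 60th percentile filter and the mean of probe sets), with 389 to 555 at an unadjusted p under 0.05. Over the alternatives the list median was 0.30 to 0.40 for heme synthesis, 0.16 to 0.37 for red cell membrane, 0.22 to 0.46 for G2-M and -0.40 to -0.23 for ribosome biogenesis. With 1 array per line and time, precision is limited by the number of arrays, and signals near the array medians (such as Vim and Hpgd at 22 h, Spry2, and Aqp1 at 12 h) leave the size of a change uncertain.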

Other observations

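The following 4 called genes are in none of the lists and were chosen after their values were seen. Msn, moesin, which links actin to the membrane, had 7.60, 7.29 and 7.24 in sh14, sh133 and scr at 22 h, against 8.12, 7.93 and 7.70 at 12 h (limma adjusted p = 0.0494). The times did not overlap. Actg1, cytoplasmic gamma actin, had 8.58, 8.76 and 8.24 at 22 h, against 9.19, 9.54 and 8.66 at 12 h (adjusted p = 0.0361), and Coro1c, a coronin, 4.90, 5.41 and 5.25 at 22 h, against 5.77, 5.57 and 5.80 at 12 h (0.03). Ackr1, the Duffy antigen receptor of red cells, was higher, with 5.36, 4.58 and 4.63 at 22 h, against 4.80, 3.99 and 3.68 at 12 h (0.0376).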
